A study of Mus musculus with 15 samples.

Results

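The 9 genes Sox9, Sox2, Nfia, Nfib, Nfix, Zbtb20, Lhx2, Pax6 and Rorb encode transcription factors of the astrocyte lineage, and they were followed through every library by their symbols in the count tables. They are 9 of 25748 symbols in those tables, and all 9 were among the 15362 genes with enough counts to be tested. Polyadenylated RNA had been sequenced from primary astrocytes of mouse brain, that is, astrocytes taken from the animal and grown in culture, in 15 libraries. The control group of 5 libraries was untreated. The LPS group of 5, which the labels call SCI for spinal cord injury, consists of cultured cells given 1 µg/mL lipopolysaccharide, a bacterial cell wall component that activates TLR4, for 6 to 8 h. The 5 libraries called Rg1 plus LPS come from cells that received 80 µM ginsenoside Rg1, a saponin of ginseng, for 12 h and then lipopolysaccharide at the same dose and for the same time. No group in the samples analysed here received Rg1 without lipopolysaccharide, and no library came from injured spinal cord. The labels used here give no strain or age. Nor do they state if replicates are independent cultures or animals, and the p-values below then reflect only how far these libraries scatter, which may be technical. Library totals ran from 34.2 to 41.8 M counts.

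SOX9 is the HMG-box factor that turns neural progenitors of the ventricular zone from making neurons to making glia, and it stays on in most mature astrocytes. It induces NFIA, and the nuclear factor I proteins (NFIA, NFIB and NFIX among them) then act with it on astrocyte genes, while SOX2 and PAX6 keep radial glia and progenitors in their state. ZBTB20 is a zinc finger repressor that promotes astrocyte formation, LHX2 is a LIM homeodomain factor of the forebrain that holds back the switch from neurons to astrocytes in the hippocampus, and RORB is an orphan nuclear receptor best known from layer IV neurons of the cortex.

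On the mouse build GRCm38.p6, the RefSeq table placed Sox9 at chr11:112782210-112787757 on the plus strand and Sox2 at chr3:34649995-34652461 on the plus strand. The NFI genes lay at chr4:97578066-98118876 on the plus strand (Nfia), chr4:82290173-82506751 on the minus strand (Nfib) and chr8:84704712-84801238 on the minus strand (Nfix). Zbtb20 lay at chr16:42875689-43634392, Lhx2 at chr2:38339271-38369737 and Pax6 at chr2:105668896-105698410, all on the plus strand, and Rorb at chr19:18930609-19111196 on the minus strand. The gene length implied by the deposited counts and FPKM differed widely between them, from 2.47 kb for Sox2 and 3.7 kb for Lhx2 to 18.3 kb for Rorb and 27.2 kb for Zbtb20.

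Promoter windows from RefSeq (GRCm38.p6), each the 250 bases before a start site, were matched for 7 of the 9 factors, all but Sox9 and Nfib. The windows of Sox2, Lhx2, Pax6 and Rorb end within 10 bases of the annotated gene start and are printed because 3 of these genes rose in the Rg1 plus LPS cultures while Sox2 passed no test. Those of Nfia, Nfix and Zbtb20 belong to starts inside the gene and are not printed. Bases in capitals match a searched motif. The windows are chr3:34649745-34649994 (plus strand) for Sox2, chr2:38339031-38339280 (plus strand) for Lhx2, chr2:105668646-105668895 (plus strand) for Pax6 and chr19:19111197-19111446 (minus strand) for Rorb, written 5′ to 3′ on the strand of the gene.
Sox2: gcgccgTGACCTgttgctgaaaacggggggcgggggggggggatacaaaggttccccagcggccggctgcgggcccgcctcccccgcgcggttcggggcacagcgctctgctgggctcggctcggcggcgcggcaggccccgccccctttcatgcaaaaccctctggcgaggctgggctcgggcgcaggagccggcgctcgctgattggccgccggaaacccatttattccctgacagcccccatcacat
Lhx2: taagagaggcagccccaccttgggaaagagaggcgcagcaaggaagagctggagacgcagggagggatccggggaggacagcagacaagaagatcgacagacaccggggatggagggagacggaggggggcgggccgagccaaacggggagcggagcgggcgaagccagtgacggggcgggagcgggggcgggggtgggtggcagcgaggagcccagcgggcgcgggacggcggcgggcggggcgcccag
Pax6: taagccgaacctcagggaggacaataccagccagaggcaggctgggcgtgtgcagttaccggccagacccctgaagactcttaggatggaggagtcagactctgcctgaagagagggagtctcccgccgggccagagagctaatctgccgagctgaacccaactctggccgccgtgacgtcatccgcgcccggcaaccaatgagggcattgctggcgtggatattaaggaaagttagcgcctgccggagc
Rorb: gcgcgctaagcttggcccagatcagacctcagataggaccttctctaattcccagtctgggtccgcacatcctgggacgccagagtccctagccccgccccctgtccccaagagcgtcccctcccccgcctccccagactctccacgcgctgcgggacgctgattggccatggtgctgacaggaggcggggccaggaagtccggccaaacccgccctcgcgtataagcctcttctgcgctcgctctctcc

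The letters searched on both strands were GGGA and TTCC parted by any 2 bases for NF-kB, ACAATG for SOX factors, TTGGCA for NFI, AGGTCA for ROR receptors, TAATTA for LIM homeodomain factors, TGANTCA for AP-1 and TTCNNNGAA for STAT factors, with N standing for any base, and they were chosen after results were seen. Of these 4 windows, only that of Sox2 held a match, the ROR letters read on the opposite strand as TGACCT, at positions -244 to -239 from the start. Among all 32851 windows of the same length, the ROR letters occurred in 14.0%, the NF-kB letters in 1.21%, the SOX letters in 10.7% and the NFI letters in 12.3%. The other shares were 4.84% for TAATTA, 6.75% for the AP-1 letters and 7.02% for the STAT letters. All 4 windows were rich in G and C, with 72.0% for Sox2, 72.8% for Lhx2, 60.8% for Pax6 and 66.0% for Rorb against a median of 52.4% over all windows. These matches describe letters and not binding, which was not measured here.

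Levels of different genes are compared as the deposited FPKM, which divides counts by gene length and by the library total. In control cultures Sox9 stood highest at 46.3 ± 2.38 FPKM (SD, n = 5 here and below), followed by Sox2 at 40.6 ± 4.37 and Nfix at 36.4 ± 2.13. The ranges of these neighbours in the order overlapped. Lhx2 came next at 12.5 ± 0.556 FPKM, apart from the genes above and below it. Nfia (5.97 ± 0.851), Nfib (5.77 ± 0.329) and Zbtb20 (5.36 ± 0.307) formed a group with overlapping ranges, followed by Pax6 at 2.95 ± 0.352 FPKM and Rorb at 0.771 ± 0.0815 FPKM, each apart from its neighbours.

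In LPS cultures the order began with Sox2 at 38.4 ± 5.22 FPKM and Nfix at 34.8 ± 4.41. Sox9 was in the third place at 16.3 ± 2.72 FPKM, below every value of Nfix and overlapping Lhx2 at 13.4 ± 0.828 FPKM. In Rg1 plus LPS cultures Sox2 (44.2 ± 9.19), Nfix (35.3 ± 6.7) and Sox9 (30.9 ± 6.0) again led with overlapping ranges, and Lhx2 followed at 16.4 ± 1.65 FPKM. Pax6, at 4.41 ± 0.616 FPKM, then overlapped Zbtb20 at 4.85 ± 0.83 FPKM. Rorb was lowest in all 3 groups.

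All 13 of the astrocyte markers listed had a mean of at least 1 CPM in each group. CPM is the normalised read count as parts per M of the scaled library total. This bar does not set astrocytes apart, as 7 of 8 fibroblast markers and 10 to 12 of 15 microglia markers also reached it. Summed over the list, the astrocyte markers reached 11200 to 14300 CPM in control, 7540 to 12800 in LPS and 7840 to 12900 with Rg1 plus LPS. Replicate 3 was the highest library of its group in both treated groups, at 12800 CPM in LPS and 12900 in Rg1 plus LPS, and lay within the range of the control libraries. The microglia list summed to 131 to 229 CPM in control, 134 to 215 in LPS and 118 to 146 with Rg1 plus LPS. The fibroblast list was more abundant, at 4270 to 5710 CPM in control, 4550 to 6380 in LPS and 2050 to 6310 with Rg1 plus LPS, and replicates 1 and 4 of the last group were its lowest libraries at 2050 and 2880 CPM. Of the 9 tested neuron markers 3 fell with LPS, led by the neurofilament gene Nefm (from 120 ± 35.5 to 17.2 ± 1.75 CPM), and of 4 tested oligodendrocyte precursor markers 1 fell, Pdgfra. With LPS 1 endothelial marker of 4 rose (Flt1) and 1 oligodendrocyte marker of 5 (Myrf), all by edgeR. In bulk RNA, fewer cells of a type and less RNA per cell cannot be told apart.

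The factors also carry regional identity. A list of 16 forebrain position genes, which includes Lhx2, summed to 168 to 273 CPM per library. The 18 hindbrain and spinal cord position genes found in the files, Hox genes among them, summed to at most 1.0 CPM in any library. Only 1 of them had enough counts to be tested. It passed in no comparison by edgeR, at an unadjusted p under 0.05 or by DESeq2, and limma voom called it lower in Rg1 plus LPS against LPS.

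**Figure D1:**
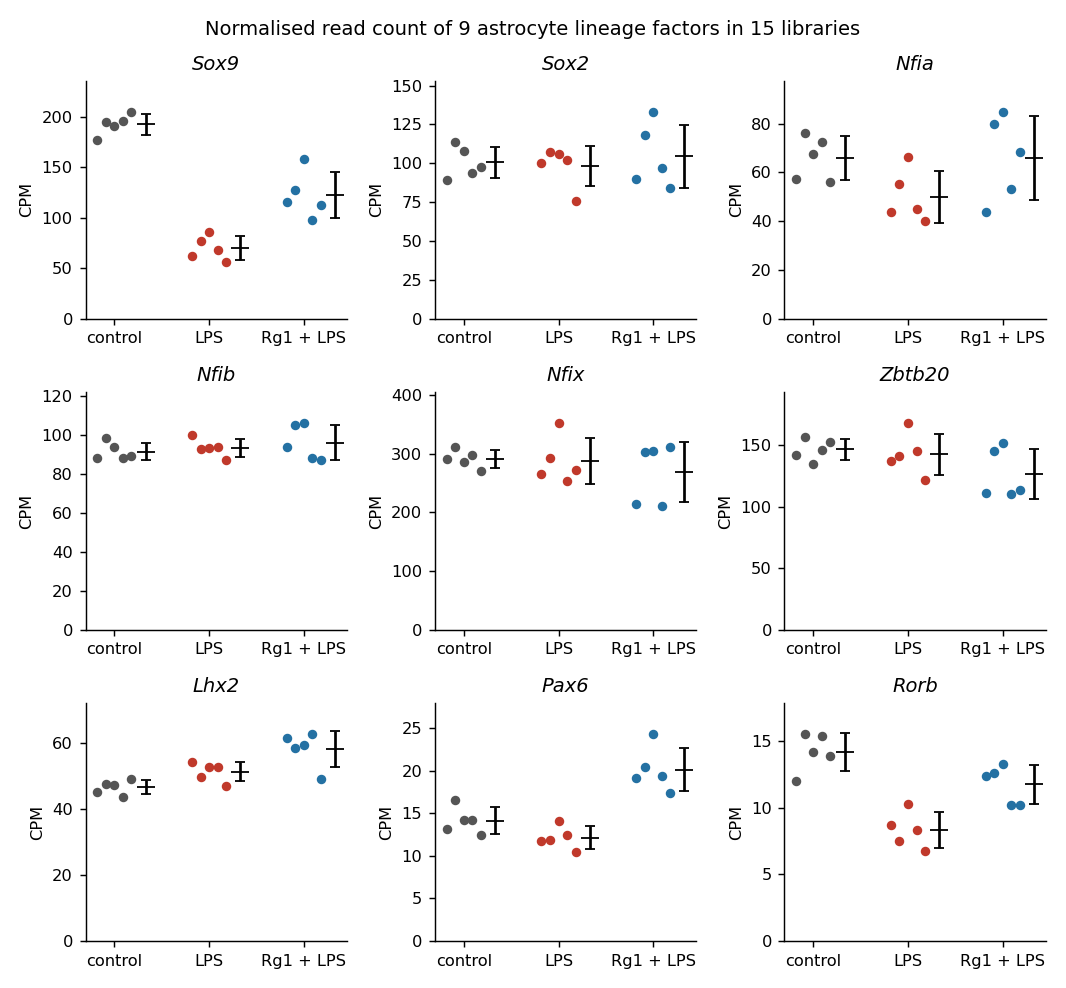
Normalised read counts (CPM, vertical axes from 0) of the 9 factors in each of the 15 libraries, by group on the horizontal axes, with replicates 1 to 5 from left to right and the mean and SD beside them. Sox9 in the 5 LPS libraries, 56.2 to 86.4 CPM, lay below every control library, 177 to 205 CPM, while the groups of Sox2, Nfib and Nfix overlapped.

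Lipopolysaccharide, the study's culture stand-in for injury, was first compared with no treatment. Sox9, the factor that starts gliogenesis, fell to 0.363 of its control level and Rorb to 0.583, while none of the 9 rose, at an unadjusted p under 0.05 or in DESeq2 or limma voom either. Thus 2 of 9 passed the test (edgeR quasi-likelihood, adjusted p under 0.05 over all genes tested), against 23.7% of all genes tested, and 9.82% of all genes fell. The median log2 fold change was -0.04 over the 9 factors and -0.003 over all genes.

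Sox9 stood at 177, 195, 191, 196 and 205 CPM in control replicates 1 to 5. In the LPS libraries it stood at 62.5, 77.3, 86.4, 67.9 and 56.2 CPM. Every LPS library thus lay below every control library, by a wide gap. The log2 fold change was -1.46 ± 0.12 (SE), with an adjusted p of 1.63e-07 by edgeR. In LPS replicate 3, where the astrocyte markers summed to 12800 CPM and so lay within the control range, Sox9 was at 86.4 CPM, below the lowest control value. Abundant genes weigh most in this sum, Gfap alone averaging 4020 CPM in control and 2850 in LPS. Whether this single library held as many astrocytes as control was not tested. Over the 5 LPS libraries the astrocyte marker list moved in the same direction as Sox9, with 6 of 13 markers lower and none higher by edgeR. At an unadjusted p under 0.05 in edgeR 10 were lower, and DESeq2 and limma voom each called 8 lower. The list median was -0.52 against -0.003 over all genes, and the part of these markers in the fall of Sox9 was not tested. Ependymal cells also carry Sox9, and 3 of 5 tested ependymal markers fell, with list sums of 104 to 135 CPM in control and 64.4 to 113 in LPS, whose part was not tested.

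Rorb, the nuclear receptor, stood at 12.0, 15.5, 14.2, 15.4 and 13.9 CPM in control. It stood at 8.66, 7.48, 10.3, 8.3 and 6.74 CPM in LPS. The groups did not overlap, as was so for 2 of the 9 factors and for 20.4% of all genes tested. The log2 fold change was -0.78 ± 0.12 with an adjusted p of 0.000129 by edgeR, from 269 to 574 counts per library.

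The progenitor factors did not pass. Sox2 read 89.5, 114, 108, 93.9 and 97.9 CPM in control and 100, 107, 106, 102 and 75.5 CPM in LPS, with 4 of the 5 LPS libraries inside the control range. Pax6, the paired-box factor of radial glia, averaged 14.1 ± 1.58 CPM in control and 12.1 ± 1.34 in LPS (log2 fold change -0.22 ± 0.10, adjusted p = 0.143, edgeR). Sox2 averaged 101 ± 10.2 and 98.2 ± 13.0 CPM, a log2 difference of -0.04 with a 95% interval from -0.28 to 0.21. The lower end of this interval is far from the fall measured for Sox9. The 95% intervals here and below are a normal approximation to the edgeR fit and narrower than its test implies. Without replicate 3 of both treated groups, a check added after the data were seen, Pax6 passed at a log2 fold change of -0.29 (adjusted p = 0.0316, edgeR).

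Among the NFI genes, Nfia averaged 65.9 ± 8.92 CPM in control and 50.1 ± 10.7 in LPS, a log2 fold change of -0.40 ± 0.18 that missed the threshold (adjusted p = 0.115, edgeR). Its control libraries read 57.4, 76.0, 67.6, 72.4 and 56.0 CPM and its LPS libraries 43.7, 55.2, 66.3, 45.0 and 40.2 CPM. All LPS libraries but replicate 3 lay below every control library. Without LPS replicate 3 the log2 fold change of Nfia was -0.53 with an adjusted p of 0.0298 by edgeR. With replicate number as a block in the fit, Nfia passed at -0.41 (adjusted p = 0.0194, edgeR). Nfib ranged from 87.9 to 98.3 CPM in control and from 87.2 to 100 CPM in LPS, and Nfix from 270 to 311 and from 253 to 352 CPM, so that the groups overlapped broadly. Nfib and Nfix showed log2 differences of 0.03 (95% interval -0.10 to 0.16) and -0.02 (-0.25 to 0.21). Zbtb20, at 135 to 157 CPM in control and 122 to 168 CPM in LPS, differed by -0.04 (-0.23 to 0.16). Lhx2 differed by 0.14 (0.01 to 0.27), with an unadjusted p of 0.0535 and an adjusted p of 0.144 by edgeR.

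**Figure D2:**
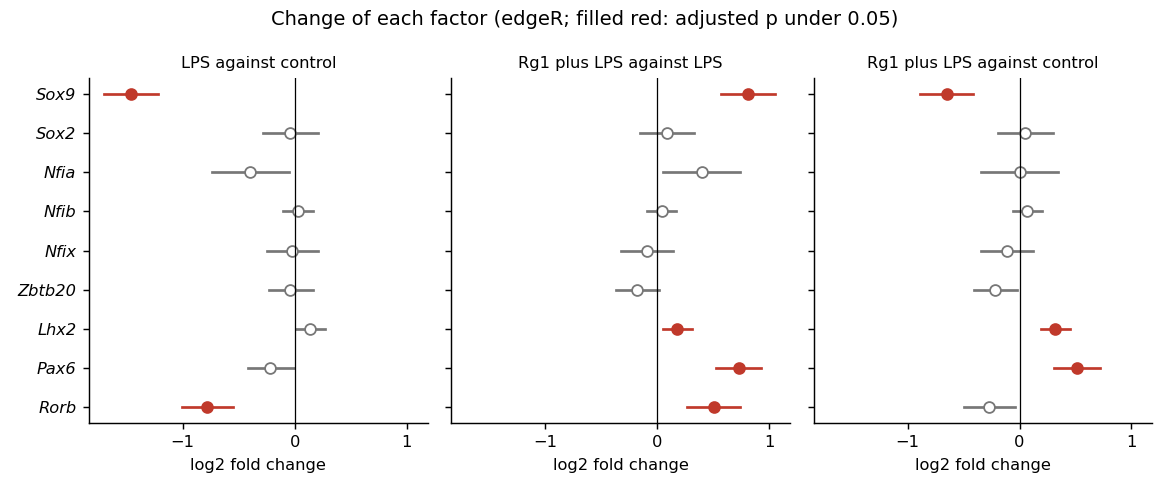
Log2 fold changes (horizontal axes) of the 9 factors in the 3 comparisons, as points filled red where the adjusted p was under 0.05. The 95% intervals are a normal approximation to the edgeR fit and narrower than its test implies. Sox9 passed in all 3 comparisons, at -1.46, 0.81 and -0.65, and Sox2, Nfib, Nfix and Zbtb20 passed in none.

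Rg1 plus LPS was next set against LPS, where all cells received lipopolysaccharide and the pretreatment is the difference that the labels name. The groups also differed in gene length trend, with a median log2 fold change of -0.21 in genes over 10 kb. This trend and the pretreatment cannot be told apart by group. Sox9 was 1.75-fold, Pax6 1.66-fold, Rorb 1.42-fold and Lhx2 1.13-fold higher, and no factor fell by edgeR, nor at an unadjusted p under 0.05. The 4 of 9 that passed compare with 45.4% of all genes tested, 22.2% being higher and 23.2% lower. The median log2 fold change was 0.18 over the 9 factors and 0.028 over all genes. This comparison uses the same 5 LPS libraries as the one above, so opposite directions in the pair are not independent of each other.

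Sox9 read 116, 128, 158, 97.9 and 113 CPM in Rg1 plus LPS replicates 1 to 5. All of these lay above the highest LPS library, 86.4 CPM. The log2 fold change was 0.81 ± 0.12, with an adjusted p of 5.6e-05 by edgeR. Replicate 3, the highest at 158 CPM, was also the highest of its group in summed astrocyte markers, and without replicate 3 of both treated groups the log2 fold change of Sox9 was again 0.81 (adjusted p = 1.5e-05, edgeR).

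Pax6 read 19.2, 20.4, 24.3, 19.4 and 17.4 CPM in Rg1 plus LPS. In LPS it read 11.8, 11.9, 14.1, 12.5 and 10.4 CPM. The groups did not overlap, which held for 2 of the 9 factors, Sox9 and Pax6, and for 27.5% of all genes tested. The log2 fold change was 0.73 ± 0.10, with an adjusted p of 3.18e-05 by edgeR, and all Rg1 plus LPS values were also above all control values.

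Rorb read 12.4, 12.6, 13.3, 10.2 and 10.2 CPM in Rg1 plus LPS. Its 2 lowest libraries, replicates 4 and 5, lay just below the highest LPS library at 10.3 CPM. The log2 fold change was 0.51 ± 0.12 with an adjusted p of 0.0024 by edgeR. The gain of Lhx2, the LIM homeodomain factor, was the smallest, from 51.3 ± 2.91 to 58.1 ± 5.31 CPM (0.18 ± 0.07, adjusted p = 0.0372, edgeR).

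Lhx2 read 61.4, 58.3, 59.3, 62.6 and 49.1 CPM in Rg1 plus LPS and 54.2, 49.8, 52.8, 52.6 and 47.0 CPM in LPS. Replicate 5 of Rg1 plus LPS lay within the LPS range, and the other 4 lay above it. This call was lost when LPS replicate 2, 4 or 5 or Rg1 plus LPS replicate 1 or 4 was left out (adjusted p from 0.0502 to 0.0913, edgeR).

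The remaining factors did not pass. Nfia averaged 66.0 ± 17.3 CPM in Rg1 plus LPS, with single libraries at 43.7, 79.7, 84.8, 53.4 and 68.2 CPM. Replicates 1 and 4, the libraries low in fibroblast markers, lay within the LPS range, and the other 3 lay above it. The log2 fold change was 0.40 ± 0.18 (adjusted p = 0.0764, edgeR). It passed without LPS replicate 3 (0.53, adjusted p = 0.019), without Rg1 plus LPS replicate 1 (0.51, 0.014) or replicate 4 (0.48, 0.0477), and without both of these Rg1 plus LPS libraries (0.64, 0.0037), all by edgeR. With replicate number as a block in the fit, Nfia passed at 0.39 (adjusted p = 0.0156, edgeR).

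Nfix showed a similar split within the group, at 215, 303, 305, 211 and 312 CPM in Rg1 plus LPS, again lowest in replicates 1 and 4, and differed from LPS by -0.09 (95% interval -0.32 to 0.14). Zbtb20 read 111, 145, 152, 110 and 114 CPM there and differed by -0.18 (-0.37 to 0.02). Sox2 read 90.1, 118, 133, 97.0 and 84.3 CPM there, highest in replicate 3, and differed by 0.09 (-0.15 to 0.33) and Nfib by 0.04 (-0.09 to 0.17). Fibroblast markers moved with the low Nfix values inside this group, and their part was not tested.

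Beside these changes, 4 of 13 astrocyte markers rose and 1 fell between LPS and Rg1 plus LPS, and 3 of 5 ependymal markers rose. Of the microglia list, 8 of 15 fell and none rose, and of the fibroblast list 1 of 7 fell. Over all genes tested, 22.2% were higher and 23.2% lower in this comparison by edgeR. The parts of these cell types in the rise of Sox9, Pax6, Rorb and Lhx2 were not tested.

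Against control, the Rg1 plus LPS cultures held less Sox9 and more Pax6 and Lhx2. Sox9 was at 0.636 of its control level (log2 fold change -0.65 ± 0.12, adjusted p = 0.00056, edgeR), Pax6 was 1.43-fold higher (0.51 ± 0.10, 0.00115) and Lhx2 1.25-fold higher (0.32 ± 0.07, 0.00149). The 3 of 9 that passed compare with 36.9% of all genes tested, with 18.8% higher and 18.1% lower. The same 3 were the factors whose groups did not overlap, against 26.2% of all genes. The median log2 fold change was 0.0 over the 9 factors and 0.011 over all genes. Cell type markers moved in this comparison as well: 4 of 13 astrocyte markers fell, among them Gja1 (-0.87) and Slc1a3 (-0.53), and none rose. Of the microglia list 5 of 15 fell, of the endothelial list 3 of 4, and of the neuron list 3 of 9 fell and 1 rose, all by edgeR. Their part in the values of Sox9, Pax6 and Lhx2 was not tested.

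The highest Rg1 plus LPS library of Sox9, 158 CPM, stayed below the lowest control, 177 CPM. Lhx2 in control read 45.1, 47.6, 47.3, 43.7 and 49.0 CPM, and its lowest Rg1 plus LPS library, 49.1 CPM, only just cleared the highest of these. Pax6 in control read 13.2, 16.6, 14.2, 14.2 and 12.4 CPM, below the 17.4 CPM of its lowest Rg1 plus LPS library.

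Rorb, by contrast, averaged 11.8 ± 1.45 CPM against 14.2 ± 1.45 in control and did not pass (-0.27, 95% interval -0.50 to -0.04, adjusted p = 0.0779, edgeR). It passed without control replicate 1 (-0.33, adjusted p = 0.0468, edgeR). Zbtb20 did not pass at -0.22 (-0.41 to -0.02, adjusted p = 0.102, edgeR), but did so without Rg1 plus LPS replicate 3 (-0.28, adjusted p = 0.0324). Nfia was at 0.00 (-0.34 to 0.34), Sox2 at 0.05 (-0.19 to 0.30), Nfib at 0.07 (-0.06 to 0.20) and Nfix at -0.11 (-0.34 to 0.12).

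**Figure D3:**
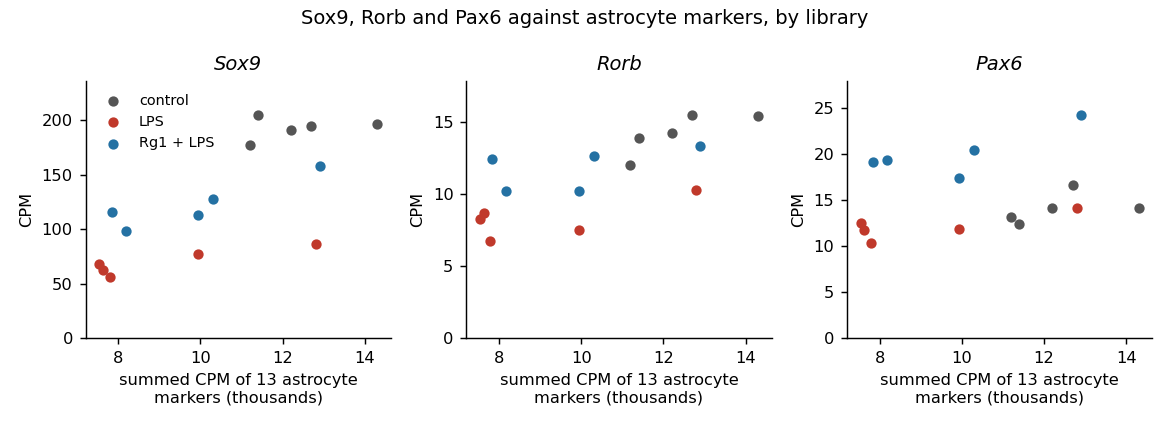
CPM of Sox9, Rorb and Pax6 (vertical axes from 0) against the summed CPM of 13 astrocyte markers (horizontal axes, in the unit given on the axis) in each of the 15 libraries, colored by group. At 12800 to 12900 CPM of markers, replicate 3 held 86.4 CPM of Sox9 in LPS and 158 CPM in Rg1 plus LPS, each a single library. The control libraries held 177 to 205 CPM of Sox9 at 11200 to 14300 CPM of markers.

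Whether Sox9 moved by a different amount than the other factors was tested on the ratio of counts within each library, which does not depend on how libraries are scaled. Between LPS and control, Sox9 fell relative to all 8 others. The log2 ratio to Sox2 went from 0.94 ± 0.14 in control to -0.49 ± 0.15 in LPS (SD, n = 5 each), a difference of -1.43 ± 0.09 (SE, two-sided exact permutation p = 0.00794, the smallest that 252 splits can give). The differences ran from -0.69 for the ratio to Rorb to -1.62 for that to Lhx2. Each of these 8 ratios had an adjusted p of 0.0119 by the exact permutation test, with adjustment over all 33 ratio tests. Rorb therefore fell by less than Sox9.

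Between Rg1 plus LPS and LPS, Sox9 rose relative to 7 of 8, and relative to 5 of 8 with the length trend of each library removed, where the ratios to Nfia (0.23, adjusted p = 0.111) and to Rorb (0.08, adjusted p = 0.498, exact permutation) no longer passed. The largest differences were 0.99 to Zbtb20 and 0.91 to Nfix, and the ratio to Sox2 rose by 0.73 ± 0.10 (exact permutation p = 0.00794). The exception was Pax6, at 0.08 ± 0.09 (exact permutation p = 0.429), so a difference between the gains of Sox9 and Pax6 was not detected. The ratio to Rorb rose by 0.30 ± 0.11 (exact permutation p = 0.0317). That last call was lost in 7 of the 10 analyses that left out 1 library of the pair, namely without LPS replicate 1, 3, 4 or 5 or Rg1 plus LPS replicate 2, 3 or 5.

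Between Rg1 plus LPS and control all 8 ratios of Sox9 were lower, from -0.39 to Rorb to -1.18 to Pax6 (exact permutation, largest adjusted p = 0.0218).

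**Figure D4:**
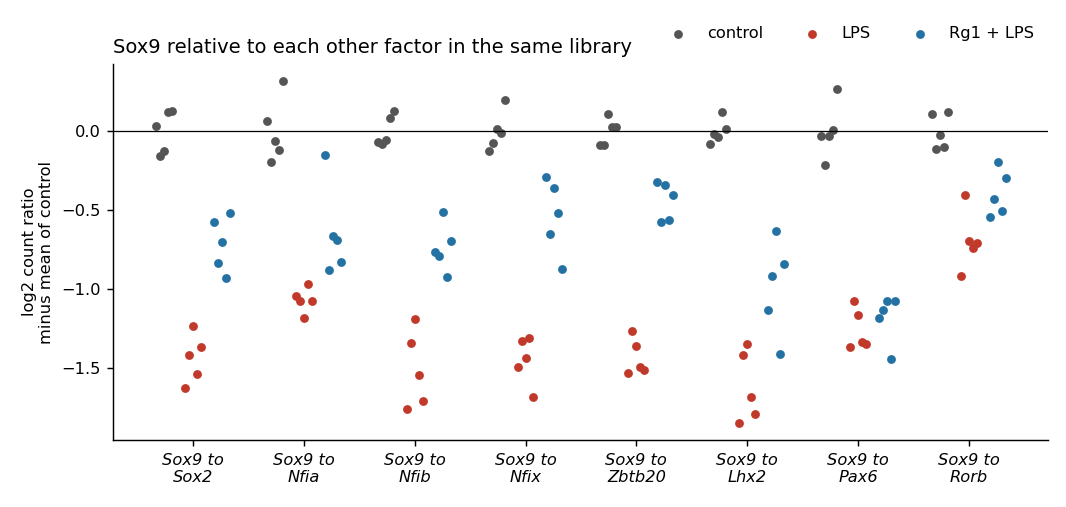
Log2 ratio of Sox9 counts to those of each other factor in the same library, minus the mean of the control libraries (vertical axis), by factor (horizontal axis) and group, with 1 point per library. LPS points lie lowest for the ratios to Sox2, Nfib, Nfix and Zbtb20, with no overlap between the 3 groups, whereas for Pax6 the LPS and Rg1 plus LPS points overlap.

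The 3 NFI genes did not keep a constant ratio. Nfia fell relative to Nfix between control and LPS, from -2.15 ± 0.14 to -2.53 ± 0.15 on the log2 scale (difference -0.38 ± 0.09, exact permutation p = 0.00794), and relative to Nfib by -0.44 ± 0.15 (exact permutation p = 0.0317). The second of these was lost without control replicate 2, 3 or 4 or LPS replicate 1, 4 or 5 (adjusted p from 0.0629 to 0.0806). Between LPS and Rg1 plus LPS the ratio of Nfia to Nfix rose by 0.48 ± 0.11 (exact permutation p = 0.00794), while Nfia to Nfib, at 0.34 ± 0.20, did not pass (exact permutation p = 0.103) except without Rg1 plus LPS replicate 1 (0.47, adjusted p = 0.0388). No NFI ratio passed between Rg1 plus LPS and control, with exact permutation p from 0.151 to 0.595. Nfib relative to Nfix passed in none of the 3 comparisons with all libraries, but did so in Rg1 plus LPS against control without Rg1 plus LPS replicate 5 (0.30, adjusted p = 0.0114, exact permutation).

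Close relatives of the factors moved in their own ways. Sox8, the SOXE relative of Sox9, rose with LPS from 8.93 ± 1.47 to 15.7 ± 1.32 CPM (0.81 ± 0.18, adjusted p = 0.00358, edgeR) and stood at 19.6 ± 6.44 CPM in Rg1 plus LPS. Sox9 made up 94.0 ± 0.857% of the summed FPKM of Sox8, Sox9 and Sox10 in control, 76.2 ± 3.73% in LPS and 81.7 ± 6.59% with Rg1 plus LPS. Sox8 made up 5.88%, 23.5% and 18.1%, and Sox10, the SOXE gene of oligodendrocytes, averaged at most 0.292%. The family sum went from 49.2 ± 2.47 FPKM in control to 21.3 ± 2.62 in LPS, and was 37.6 ± 5.08 in Rg1 plus LPS.

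Sox1, the SOXB1 relative of Sox2, fell with LPS (-1.25 ± 0.19, adjusted p = 0.000126, edgeR) and was higher with Rg1 plus LPS than with LPS (1.22 ± 0.19, adjusted p = 7.34e-05). Sox2 itself made up 93.0%, 96.5% and 93.4% of the summed FPKM of Sox1, Sox2 and Sox3 in control, LPS and Rg1 plus LPS. Sox21, an SOXB2 gene that counters SOXB1 activity, likewise fell (-0.95 ± 0.13) and was higher with Rg1 (1.22 ± 0.13), with adjusted p of 3.07e-05 and 9.85e-07 by edgeR.

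Nfic, the fourth NFI gene, was higher with LPS (0.59, adjusted p = 0.00386, edgeR) and lower with Rg1 plus LPS than with LPS (-0.75, 0.00027). Its share of the summed NFI FPKM was 25.0 ± 0.934% in control, 34.2 ± 1.85% in LPS and 23.9 ± 1.3% with Rg1 plus LPS, and that of Nfix was 56.8 ± 1.07%, 50.9 ± 1.05% and 55.9 ± 0.841%. Nfia held 9.27%, 6.4% and 9.85%. The family sum was 64.2 ± 4.43, 68.3 ± 8.23 and 63.0 ± 11.5 FPKM in the same order.

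Rora, a relative of Rorb that is also a nuclear receptor, was higher with LPS than in control (0.33, adjusted p = 0.0462, edgeR) and lower with Rg1 plus LPS than with LPS (-0.80, adjusted p = 3.59e-05, edgeR), where Rorb was at -0.78 and 0.51.

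**Figure D5:**
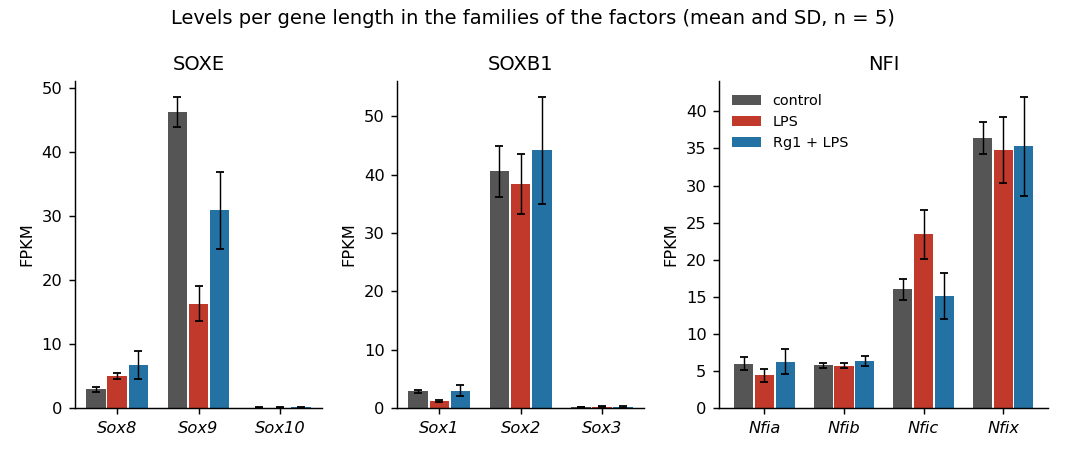
Mean FPKM (vertical axes from 0, bars, with SD over 5 libraries) of the members of the SOXE, SOXB1 and NFI families in control, LPS and Rg1 plus LPS. Sox9 drops from 46.3 to 16.3 FPKM with LPS while Sox8 goes from 2.89 to 4.93 and Nfic from 16.0 to 23.4 FPKM.

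Over all 16 tested relatives of the factors, 6 rose and 6 fell with LPS, 3 rose and 6 fell with Rg1 plus LPS against LPS, and 1 rose and 6 fell against control. The largest rises with LPS were those of Sox13 (1.98 ± 0.16, adjusted p = 1.08e-07) and Sox7 (1.45 ± 0.13, 4.79e-07), both lower with Rg1 plus LPS than with LPS (-1.64 and -2.57, edgeR). The median log2 fold changes of the relatives were -0.07, -0.14 and -0.10. Over all genes tested the medians were -0.003, 0.028 and 0.011. Of all genes tested, 13.8% rose and 9.82% fell with LPS by edgeR. The shares were 22.2% and 23.2% for Rg1 plus LPS against LPS, and 18.8% and 18.1% against control. These shares and medians of all genes also apply to the lists that follow.

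Other regulators of glial fate were examined as a list of 38 genes, of which 37 were tested. With LPS 7 rose and 9 fell, with Rg1 plus LPS against LPS 13 rose and 10 fell, and against control 10 rose and 9 fell. The Notch effector Hes1, which holds progenitors undifferentiated, fell with LPS from 40.9 ± 4.79 to 15.2 ± 2.43 CPM (-1.43 ± 0.13, adjusted p = 3.04e-07) and stood at 48.4 ± 7.42 CPM with Rg1 plus LPS (1.67 ± 0.13 against LPS, adjusted p = 2.8e-08, edgeR). Hey1, another Notch effector, followed the same course (-0.90 and 1.46), whereas Rbpj, the DNA-binding partner of Notch, rose with LPS (0.46) and was lower with Rg1 plus LPS (-1.13).

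Inhibitors of basic helix-loop-helix factors split: Id3 rose with LPS (1.13 ± 0.13, adjusted p = 6.42e-06) and Id4 fell (-1.34 ± 0.18, adjusted p = 5.76e-05, edgeR). Stat3, which carries gliogenic cytokine signals, was lower with Rg1 plus LPS than in control (-0.79 ± 0.08, adjusted p = 2.45e-06, edgeR), as were Rbpj (-0.66) and Tead1 (-0.63), the DNA-binding partner of YAP. The median of the 37 was -0.15, 0.02 and -0.02 in the 3 comparisons.

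Genes that the literature names as targets of these factors were described next. Of 14, none rose and 4 fell with LPS by edgeR, namely Aldh1l1 (-0.52), Fgfr3 (-0.53), S100b (-0.56) and Hepacam (-0.39), the last falling outside the rule for named genes. DESeq2 and limma voom each called 8 lower there, as many as had an unadjusted p under 0.05 in edgeR. With Rg1 plus LPS against LPS, 4 rose by edgeR, among them S100b (0.78 ± 0.12, adjusted p = 7.36e-05) and Fabp7 (0.47 ± 0.07, 3.15e-05, edgeR), and Slc1a3, a glutamate transporter, fell (-0.32), while DESeq2 called 3 lower and limma voom 2. The medians were -0.39, 0.15 and -0.19, and against control 1 rose and 3 fell. Many of these genes are also astrocyte markers.

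SOX9 also drives cartilage genes, and 9 of these were tested. None passed with LPS by edgeR, although 3 were lower at an unadjusted p under 0.05, 2 were lower by DESeq2 and 1 by limma voom, and the median was -0.27. With Rg1 plus LPS against LPS, Col9a3 and Col9a1, chains of collagen IX, rose (0.65 and 1.27), and Col11a1 fell (-0.44), with a median of 0.28. Against control 1 rose, 1 fell and the median was 0.0.

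Radial glia and progenitor genes, a list of 14 tested that includes Pax6, held 1 rise and 4 falls with LPS, 5 rises and 3 falls with Rg1 plus LPS against LPS, and 2 rises and 4 falls against control, with medians of -0.24, 0.13 and -0.19. Fabp7, the lipid binding protein of radial glia, stood at 375 ± 11.1, 341 ± 15.5 and 473 ± 52.6 CPM in control, LPS and Rg1 plus LPS, and like Pax6 was higher with Rg1 plus LPS than in control (0.34, adjusted p = 0.00108, edgeR). Tnc and Cd44 were lower than in control (-0.84 and -0.78).

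Of the 11 tested forebrain position genes, 2 rose and 3 fell with LPS, 6 rose and 1 fell with Rg1 plus LPS against LPS, and 5 rose and none fell against control, with medians of -0.21, 0.29 and 0.32. Fezf2, a zinc finger factor of the early forebrain, went from 2.5 ± 0.457 CPM in control to 0.711 ± 0.141 in LPS and 4.09 ± 1.07 with Rg1 plus LPS.

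The genes whose pattern over the 15 libraries was most like that of a factor were found by the root mean square difference of centred log2 CPM among 10646 genes. For Sox9 they were Marchf4, a membrane ubiquitin ligase (0.187), and Slc14a1, a urea transporter (0.195). Marchf4 averaged 15.2, 6.38 and 8.89 CPM in control, LPS and Rg1 plus LPS. For Pax6 they were the homeobox gene Mkx (0.057) and the nuclear receptor gene Nr2f1 (0.103). Mkx averaged 13.3, 11.6 and 19.1 CPM.

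Rorb was matched by Dixdc1 (0.14) and by the repressor gene Bcl6 (0.153), and Nfia by the potassium channel gene Kcnk1 (0.089) and Mtus1 (0.106). Lhx2 was matched by Paip1 and Tdrd3, Sox2 by Zhx1 and Ccdc85a, Nfib by Phf20 and Sub1, Nfix by Camk2b and Spidr, and Zbtb20 by Phactr2 and Fam171b. The distance is not scaled to how much a factor varies, so factors that vary little lie near many genes. Around its own mean Nfib varied by 0.092 and Sox2 by 0.196, against 0.064 and 0.108 to their nearest genes. Among the factors themselves, Sox9 lay nearest to Rorb (0.314) and farthest from Lhx2 (0.692). Sox2 and Nfib were the closest pair (0.132), a distance that also reflects how little they varied, and neither passed in any comparison.

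Gene length moved with the comparison. Among all tested genes over 10 kb, 1392 in number, the median log2 fold change was -0.21 for Rg1 plus LPS against LPS and -0.21 against control, but 0.01 for LPS against control. Nfia, Nfib, Zbtb20 and Rorb are over 10 kb in these files. With the length trend of each library removed, Nfia (0.62, adjusted p = 0.00964) and Nfib (0.28, 0.000285) also passed in Rg1 plus LPS against LPS, and Nfib (0.30, 0.000311) against control, by edgeR. Zbtb20 then differed by 0.07 from LPS in place of -0.18.

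Several genes overlap the factors, and the strand setting of the counting is not given in the sources used here, so reads of such pairs could be shared. Sox2ot, the transcript that spans Sox2 on the same strand and shares no exon base with it, averaged 11.8 ± 1.44, 11.2 ± 1.79 and 14.7 ± 2.65 CPM in control, LPS and Rg1 plus LPS, and rose with Rg1 plus LPS against LPS (0.40, adjusted p = 0.0219, edgeR) where Sox2 did not pass. On the opposite strand of Nfix lie Lyl1 (7.75, 4.57 and 4.81 CPM, 4 shared exon bases) and G430095P16Rik (at most 0.965 CPM, 137 shared bases). E130114P18Rik overlaps Nfia by 4 exon bases and averaged 5.42, 3.74 and 6.16 CPM, and Pax6os1, antisense to Pax6, averaged at most 0.664 CPM.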

How the data were processed

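The authors deposited, for each of 15 libraries, raw counts by gene symbol and FPKM, which are counts scaled to gene length and library total. Gene lengths were inferred from the deposited counts, FPKM and library totals. The lengths implied by single libraries deviated from their median by a relative 7.22e-10 at most. In the FPKM files 37 rows with damaged symbols were not used. GRCm38 and mm10 are the builds listed in the submitters' processing notes. For the aligner, counting program and strand setting, the entry is: not given in the sources used here. Titles and design text give 5 replicates of Rg1 and were followed, although the treatment labels of these samples count from Rg1 up to Rg5.

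The counts were fitted by edgeR 4.0.16 under R 4.3.3 (filterByExpr, TMM factors, robust quasi-likelihood F-test, two-sided) in a fit of all 15 libraries with group as its only term. P-values were adjusted over 15362 genes by the Benjamini-Hochberg method, with 0.05 as threshold. CPM are counts divided by TMM-scaled library totals in M, and FPKM served to compare levels between genes. Count ratios within libraries (0.5 added) were compared by exact permutation tests, adjusted over 33 tests. Alternatives used DESeq2 1.42.0, limma 3.58.1, other scalings, a replicate block, gene length and single libraries left out. The factors, lists and motifs were chosen with earlier results of these data known. All factors are named. Of each list, up to 3 genes a direction in order of adjusted p are named, and for each factor its 2 nearest genes at a mean of 5 CPM or more (log2 CPM with a prior count of 2), without symbols made of Gm and digits or ending in Rik. Some genes that this rule names are not reported here. Tested on simulated data, the fit recovered 89, 86 and 88 of 100 genes changed 2-fold and 62, 67 and 67 of 100 changed 1.5-fold, in LPS against control, Rg1 plus LPS against LPS and Rg1 plus LPS against control. Only these genes were changed there, with independent noise, whereas 23.7% to 45.4% of genes were called in the data. The recovery rates therefore need not carry over.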

Additional observations from a re-analysis of the deposited data

Results flagged for a closer look

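Sox2 in LPS replicate 5 stood at 75.5 CPM, apart from the other 4 LPS libraries at 100 to 107 CPM. It is the only value of the 9 factors that lay this far from the rest of its group by Dixon's criterion among 27 groups checked, and chance flags about 1 in 20 groups. Without this library Sox2 differed between LPS and control by 0.04 on the log2 scale (adjusted p = 0.852, edgeR).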

How the results depend on the processing

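The number of factors called in LPS against control, 2, became 4 with the replicate block and gene length trend removed (Nfia and Pax6 added to Sox9 and Rorb) and 4 without replicate 3 of both treated groups, an alternative added after the data were seen, as was leaving out Rg1 plus LPS replicates 1 and 4. Without replicate 3 of both treated groups the 3 called in Rg1 plus LPS against control became 5, with Rorb and Zbtb20 added. The number of factors called stayed within 1.5 times of 2, 4 and 3 in all other settings run. The share of all genes called under each alternative setting is not given here or below. These counts therefore do not tell if the factors alone or genes in general were called more often. Sox9 and Rorb kept their calls in LPS against control, Sox9, Pax6 and Rorb in Rg1 plus LPS against LPS, and Sox9, Pax6 and Lhx2 in Rg1 plus LPS against control under all settings run. Lhx2 in Rg1 plus LPS against LPS was lost with no filter on low counts (adjusted p = 0.0808), with only the groups compared (0.0787) and without Rg1 plus LPS replicates 1 and 4 together (0.181, edgeR). Leaving out 1 library at a time gave 1 to 2 differing NFI ratios in LPS against control, 1 to 2 in Rg1 plus LPS against LPS and 0 to 1 in Rg1 plus LPS against control.

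The labels do not say that a replicate number marks a shared culture or day. Deviations of same-numbered LPS and Rg1 plus LPS libraries correlated at 0.168, 0.05, 0.423, 0.366 and 0.424 for replicates 1 to 5, over 0.1 in 4 of 5 pairs, and the own number was the best match in 3 of 5. With control libraries the values ran from -0.222 to 0.155, with 1 best match in 10. As not every pair was over 0.1, a rule that failed on replicate 2 alone, the numbers were not taken as pairing the libraries. Astrocyte marker sums were highest in replicate 3 of both treated groups, at 12800 and 12900 CPM. Whether same-numbered LPS and Rg1 plus LPS libraries shared a culture or day was not tested. With the replicate block 3, 5 and 3 factors were called in the 3 comparisons, Nfia being added at -0.41 (adjusted p = 0.0194) in the first and 0.39 (0.0156) in the second. Scaling to library size only moved the median of all genes in Rg1 plus LPS against LPS to 0.139 and upper quartile factors to 0.164. Under these scalings, with that shift still in the values, Nfia passed there at 0.51 (adjusted p = 0.025) and 0.54 (0.0216), and Nfib at 0.18 with the latter (0.0399, edgeR).

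Signs changed only for differences that passed under neither setting. In LPS against control, Nfib turned to -0.01 with library size only and -0.03 with upper quartile factors. Leaving out single libraries gave from -0.08 to 0.04 for Sox2, -0.12 to 0.02 for Nfix and -0.11 to 0.01 for Zbtb20. In Rg1 plus LPS against LPS, Nfix turned to 0.02 with library size only, 0.05 with upper quartile factors, 0.11 with the length trend removed, 0.10 with the block as well and 0.10 without Rg1 plus LPS replicates 1 and 4. Sox2 turned to -0.02 and -0.03 and Zbtb20 to 0.07 and 0.06 with the length trend removed, without and with the block. In Rg1 plus LPS against control, Nfia turned to -0.01 with RLE factors and DESeq2, -0.02 with no filter, -0.03 with limma voom and the block, -0.10 without replicate 3 of both treated groups and ran from -0.10 to 0.12 with single libraries left out. With the length trend removed, without and with the block, Sox2 turned to -0.05 and -0.06, Nfix to 0.05 and 0.02 and Zbtb20 to 0.04 and 0.03. Sox2 also turned to -0.04 without replicate 3 of both treated groups and ran from -0.04 to 0.14 with single libraries left out, and Nfix to 0.08 without Rg1 plus LPS replicates 1 and 4. The log2 ratio of Nfia to Nfib turned to 0.03 without Rg1 plus LPS replicate 1, within a range from -0.16 over single libraries left out. The causes were not tested. The lowest count of any factor was 269, for Rorb, and 5 libraries a group limit the precision of the smaller differences.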
